A study of Mus musculus with 58 samples.

Results

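Nascent RNA was compared between mouse embryonic stem (mES) cells that lack the H3K4me3 demethylases KDM5A and KDM5B at the start and after 48 h of DPY30 loss. The members are 4 SLAM-seq samples of the 58 samples in the series, chosen by their labels: 2 labelled DPY30mAID_Kdm5dKO at 0 h and 2 at 48 h. They were E14 cells, a 129/Ola line, and DPY30 carried a mini auxin-inducible degron (mAID) with OsTIR1 expressed beside it, so that auxin sent DPY30 to degradation. Both groups carried these alleles and the deletion of Kdm5a and Kdm5b (dKO), and both were incubated with 4-thiouridine (4SU) before RNA isolation. They differed in the time of DPY30 loss, and there was no vehicle-treated group at 48 h, so time in culture and DPY30 loss cannot be told apart. The study's methods describe 2 clones with both genes deleted. The labels do not say which clone gave which library, so the p-values below measure the spread between these samples. Another 8 dKO libraries, 2 each at 2 h, 4 h, 8 h and 24 h, entered the same fit and shared its estimate of the spread.

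H3K4me3 marks the transcription start sites of active genes. It is laid down by the SET1/COMPASS complexes, which share a core of WDR5, RBBP5, ASH2L and DPY30, and it is removed by the KDM5 family. In SLAM-seq, 4SU enters RNA made during the labelling pulse and is read, after alkylation, as a T>C mismatch, so that reads with such a mismatch (T>C reads) stand for newly made RNA and all reads stand for the standing pool. The comparison asks how far mRNA synthesis had changed by 48 h in cells without KDM5A and KDM5B, with KDM5C, another member of the family, not deleted. A level is given here as T>C CPM, T>C reads per 1000000 counted reads of the same library, all T>C or not.

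Kdm5a was deleted first and Kdm5b after it. A pair of guides is listed for each gene, and they are shown because they define the genotype that both groups share. In the following oligonucleotides, capitals mark the spacer and the lower-case bases are the cloning overhang.
Kdm5a guide 1: caccGTGAAGTCAGGATTACCACC
Kdm5a guide 2: caccGTAATGACAAGGTTGTTACA
Kdm5b guide 1: caccGACTTTTTTCTTTAAAATAC
Kdm5b guide 2: caccGCATCTGCCTGCAAACAAAG
The spacer of Kdm5b guide 2 matched exon 1 of the GENCODE transcript Kdm5b-205 at chr1:134589368-134589387 (GRCm38, minus strand), next to an AGG. The other 3 spacers matched no GENCODE transcript, and their positions outside transcripts were not analysed here. The Kdm5b reads were counted in a single 3′ UTR interval at chr1:134630811-134635285, beyond that site, so reads from this interval do not test the deletion itself.

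Reads of both target genes remained in the dKO libraries. They are set beside those of the DPY30–mAID libraries with intact Kdm5 genes, whose reads covered more T positions, so the values do not isolate the knockout. Kdm5b had 109 to 151 CPM of all reads (counted reads per 1000000) in the 12 dKO libraries and 389 to 946 in the 12 DPY30–mAID libraries. Kdm5a had 26.0 to 40.7 and 61.1 to 107, respectively. Dpy30, which is not deleted, had 55.8 to 74.4 and 71.4 to 172. T>C CPM of Kdm5b were 2.79 and 3.72 at 0 h and 1.07 and 1.19 at 48 h, and 90.4% of its T>C reads at 48 h are expected from unlabelled RNA. Dpy30 is depleted as a protein, which was not measured here. Its mRNA was read at 74.4 and 61.3 CPM of all reads at 0 h and 66.5 and 70.0 at 48 h. All 8 ES cell markers (Pou5f1, Sox2, Nanog, Esrrb, Zfp42, Klf4, Dppa5a and Tdgf1) were detected, with a summed level of 7093 and 7357 CPM of all reads at 0 h and 6335 and 6242 at 48 h.

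T>C reads made up a smaller share of the counted reads in both 48 h libraries than in either 0 h library. The share was 4.69% (95% Wilson interval 4.67 to 4.71%) and 5.27% (5.25 to 5.28%) at 0 h, and 2.04% (2.03 to 2.05%) and 2.37% (2.36 to 2.38%) at 48 h. The means were 4.98% ± 0.407 (SD, n = 2) and 2.2% ± 0.236 (SD, n = 2), a ratio of 0.443. The 48 h libraries were the lowest of the 12 dKO libraries, below 3.13% and 2.98% at 24 h. A two-sided exact permutation test gave p = 0.333, the smallest value that 2 against 2 libraries allow. The libraries held 6560292 to 7792404 counted reads, of which 133616 to 410332 were T>C reads, and intervals cover counting error only because reads carried no molecular identifiers.

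The number of conversions in each T>C read was lower at 48 h as well. It was 1.14 and 1.14 at 0 h, 1.06 and 1.05 at 24 h and 1.03 and 1.03 at 48 h, against 0.954 to 0.971 in 21 Quant-seq libraries of unlabelled RNA. These came from DPY30–mAID cells with intact Kdm5 genes, in a retinoic acid (RA) time course with DMSO or auxin, and of 22 deposited a pair with identical counts was taken as 1. Conversions and T>C reads are separate counts in the files, so the ratio can lie below 1. Per 100 T positions covered, 0.473 and 0.533 conversions were read at 0 h and 0.187 and 0.217 at 48 h. T>C reads made up 0.303 to 0.388% of the unlabelled libraries, and reads at that rate would be 6.22% of the T>C reads of tested genes at 0 h and 14.2% at 48 h. With labelled reads at their 0 h conversions, the larger unlabelled part at 48 h would give 1.12 conversions per T>C read, where 1.03 were measured. Fewer labelled transcripts and less 4SU in each transcript both lower the T>C counts, and their parts in the fall were not tested.

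**Figure D1:**
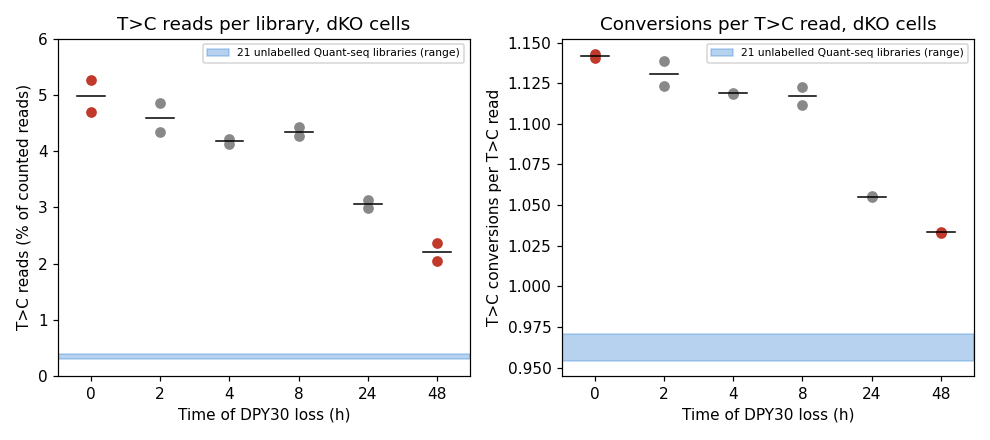
Share of T>C reads among counted reads (left, %) and T>C conversions per T>C read (right) in each of the 12 dKO libraries by time of DPY30 loss in hours. Points are libraries, with 0 h and 48 h in red, short lines are means of 2, and the blue band is the range of 21 unlabelled libraries. Both 48 h libraries lie under both 0 h libraries in both panels.

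The fall was spread over the tested transcriptome. The test took in 5965 of 20177 genes, those that averaged 10 or more T>C reads at any time point, and 3840 of them (64.4%) were downregulated at 48 h, with an adjusted p below 0.05 in edgeR's quasi-likelihood test and a log2 fold change below −1. Only 7 genes (0.117%) were upregulated at the same thresholds. The fitted log2 fold change was below 0 for 5815 genes, and the interquartile range over genes was −1.73 to −0.92. Both 48 h libraries lay below both 0 h libraries for 84.2% of the tested genes and above them for 0.905%. The median change from the 0 h mean was −1.32 and −1.10 in the 48 h libraries and −0.078 and 0.074 in the 0 h libraries, with p = 0.333 in the exact permutation test. At 48 h, 3289 of the tested genes still averaged 10 or more T>C reads, so the others were tested on their level at an earlier time point. The filter was met at 0 h only by 254 genes, of which 174 were called lower.

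These values refer to all reads, which keeps a fall common to all nascent RNA in view. With library sizes taken from the T>C reads themselves, the median log2 fold change moved from −1.29 to −0.11. The same counts then gave 170 genes called lower (2.85%) and 79 called higher (1.32%), that is, lower or higher relative to the bulk of the nascent RNA. All 170 of the first were downregulated with scaling to all reads too, and all 7 upregulated genes were among the 79. A log2 fold change is given below with scaling to all reads unless T>C scaling is named. No spike-in was among the counts, so a change in the amount of RNA per cell is not visible in either scaling.

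**Figure D2:**
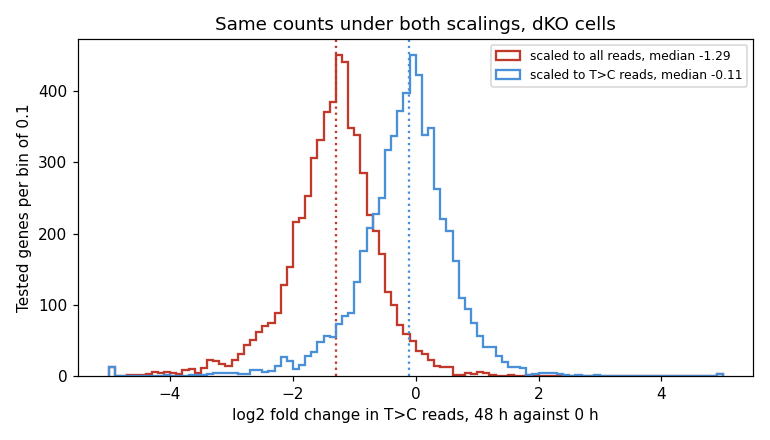
Histogram of the log2 fold change in T>C reads, 48 h against 0 h, over 5965 tested genes, scaled to all reads (red) or to T>C reads (blue), with dotted lines at the medians of −1.29 and −0.11. Values beyond the axis are drawn in the end bins. Nearly all of the red distribution lies below 0.

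The rule took the 10 downregulated genes with the highest T>C level at 0 h and both 48 h libraries below both 0 h libraries. Their log2 fold change ran from −1.05 for Atf4 to −2.15 for Jade1. Eef1a1, which delivers aminoacyl-tRNA to the ribosome, had 341 and 334 T>C CPM at 0 h and 145 and 172 at 48 h (log2 fold change −1.18 with SE 0.127, adjusted p = 3.28e-13). Jade1, a subunit of the HBO1 histone acetyltransferase complex, had 161 and 176 at 0 h and 32.3 and 48.0 at 48 h (log2 fold change −2.15 with SE 0.155, adjusted p = 3.89e-21). On T>C scaling Jade1 had −0.97 (adjusted p = 1.18e-11), just inside the fold threshold, and Eef1a1 was at 0.0040. Dusp6 (−0.82) and Hsp90aa1 (−0.78) had 0 h levels in the same range and were not called.

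The nucleolar chaperone Npm1 went from 207 and 265 T>C CPM to 75 and 90.8, and the histone variant gene H2afz from 145 and 142 to 46.6 and 48.7. The ribosomal protein gene Rpl4 had 178 and 202 T>C CPM at 0 h and 79.6 and 88.1 at 48 h, and H3f3b, which encodes histone H3.3, had 137 and 139 at 0 h and 52.7 and 65.5 at 48 h. Pabpc1, the cytoplasmic poly(A)-binding protein, and Hspa8, a constitutive HSP70 chaperone, changed by −1.44 and −1.44. Atf4, a transcription factor of the integrated stress response, fell by 1.05 on the log2 scale, and by 0.88 without replicate 2 of 0 h, when it was no longer called, nor was it without TMM (−0.96). Less the T>C reads expected from unlabelled RNA, the log2 ratio was −1.41 for Atf4 and −1.77 for Npm1, against −0.96 and −1.51 with them. Part of the counts cannot be assigned to a single copy: 99.9% of the Hspa8 reads, 96.0% of H2afz, 90.6% of Pabpc1 and 84.9% of Eef1a1 were multimapped.

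The steepest falls among genes that averaged 50 or more T>C reads at 0 h were between −3.0 and −3.96 on the log2 scale. Inhbb, which encodes a subunit of activin B (chr1:119415465-119422248), had 10.6 and 9.75 T>C CPM at 0 h and 0.305 and 1.04 at 48 h, from 2 and 7 T>C reads (log2 fold change −3.96 with SE 0.421, adjusted p = 1.87e-13). Gbx2, a homeobox factor of naive mES cells (chr1:89927956-89931179), had 13.1 and 16.6 at 0 h and 1.07 and 2.08 at 48 h (log2 fold change −3.31 with SE 0.328, adjusted p = 9.37e-15). Lgr4, an R-spondin receptor of the Wnt pathway, had 5.88 and 7.83 at 0 h and 0.152 and 0.891 at 48 h. In these genes the 0 h libraries lay close together and the 48 h libraries were near 1 T>C CPM or below, except for 2.08 in replicate 2 for Gbx2.

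The mRNA decay factor Zfp36l2 changed by −3.42, Mid1ip1, a regulator of fatty acid synthesis, by −3.24 and Rcor2, a corepressor that binds the demethylase LSD1, by −3.10. Of the Zfp36l2 reads, 97.0% were multimapped. Trap1a, a tumour rejection antigen gene, changed by −3.76, AW209491 by −3.08 and AU018091 by −3.0. Apobec3, a cytidine deaminase gene, changed by −3.47, and the T>C reads expected from unlabelled RNA were 109% of those counted at 48 h, so its 48 h level was no higher than the background. For all 10 genes the T>C-scaled change was also called, from −1.82 for AU018091 to −2.79 for Inhbb. Values of this size follow from how the genes were chosen, because T>C scaling moved the median gene by 1.18. All reads of Inhbb changed by −1.06, those of Gbx2 by −1.23 and those of Lgr4 by −0.50. Without the expected unlabelled reads, the log2 ratio of Trap1a was −4.38 instead of −3.74.

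Of the 7 upregulated genes, Ccn2 had 12 and 45 T>C reads at 0 h, and the other 6 had at most 22 in a library. Mgat4c, an N-acetylglucosaminyltransferase gene (chr10:101681487-102391469), had 0 T>C reads in both 0 h libraries and 16 and 6 at 48 h. Against the level that 3 reads over both 0 h libraries would give, this was at least 8.05-fold higher. Mgat4c and Ptgs2 passed the filter on low counts only through their 48 h level, as 10 tested genes did, so their calls carry no weight as a test. Cyp1a1, a cytochrome P450 induced by the aryl hydrocarbon receptor (chr9:57687928-57703824), had 0 at 0 h and 2 and 12 at 48 h, at least 5.12-fold higher (adjusted p = 7.83e-04). The Cyp1a1 call was lost without replicate 2 of 48 h, where the fitted value was 4.07. The standing mRNA of Mgat4c rose from 1.03 and 1.28 CPM of all reads to 11.6 and 15.2.

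Egr1, an immediate early zinc-finger factor, had 2.06 and 2.05 T>C CPM at 0 h and 6.40 and 6.09 at 48 h, with no overlap (log2 fold change 1.51 with SE 0.374, adjusted p = 3.40e-04). Fgfbp1, which encodes an FGF-binding protein (chr5:43978858-43981779), had 1.91 and 2.82 at 0 h and 5.79 and 5.79 at 48 h (log2 fold change 1.18 with SE 0.362, adjusted p = 0.00323), and its log2 fold change was 0.92 without replicate 1 of 0 h, when the call was lost. Their all-read levels also rose, by 2.48 and 2.14 on the log2 scale.

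The calls of the other 3 upregulated genes depended on single libraries and on the tool, and with DESeq2 none of them was made (Ccn2 1.32, Ptgs2 1.86 and Csrp1 1.10). Ccn2, a connective tissue growth factor gene and target of YAP (chr10:24595442-24598683), had 1.76 and 5.77 T>C CPM at 0 h and 3.66 and 16.5 at 48 h, so that the groups overlapped (log2 fold change 1.30 with SE 0.358, adjusted p = 0.00116). Its value turned to −0.18 without replicate 2 of 48 h, and was 0.70 without replicate 1 of 0 h. Ptgs2, which encodes the prostaglandin synthase COX-2 (chr1:150100031-150108227), had 0.294 and 0.513 at 0 h and 0.457 and 2.67 at 48 h (log2 fold change 1.81), and was not called with no filter on low counts, in a fit of the 4 libraries alone (1.80) or without either 0 h library (1.48 and 2.28). Csrp1, a LIM-domain protein gene (chr1:135720061-135752232), had 1.62 and 1.80 at 0 h and 2.74 and 5.05 at 48 h (log2 fold change 1.10 with SE 0.432, adjusted p = 0.0203), and was not called without replicate 1 or 2 of 0 h (1.0 and 1.19) or replicate 2 of 48 h (0.57). The all-read level of 6 of the 7 genes was called higher, and that of Csrp1 changed by 0.56. Of the Csrp1 reads, 77.7% were multimapped.

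**Figure D3:**
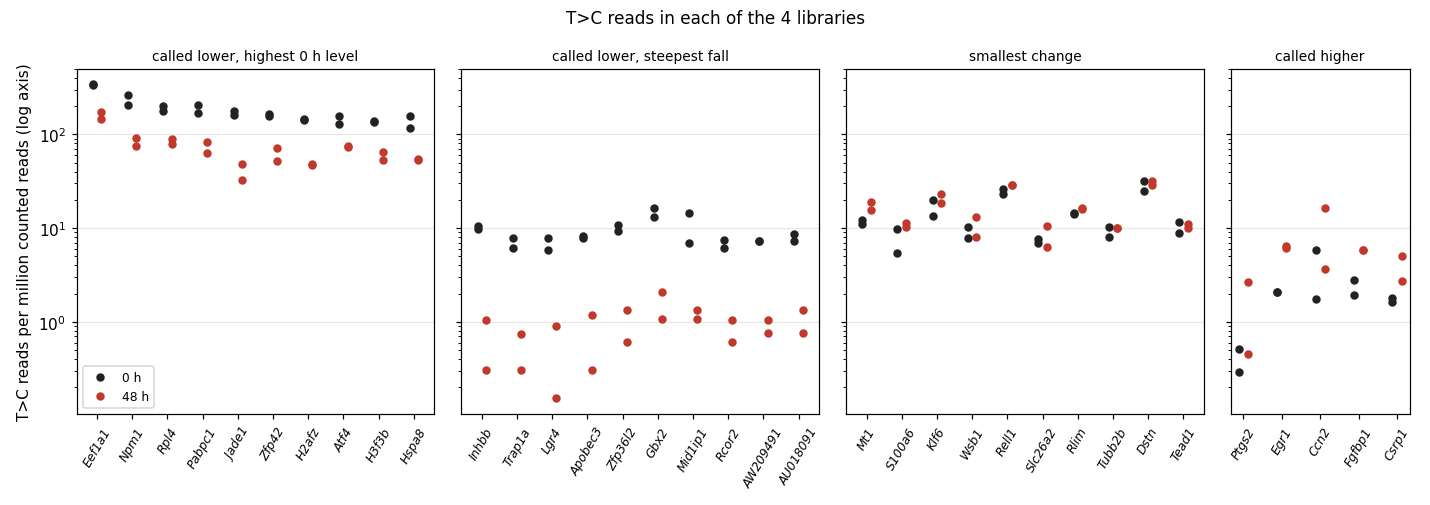
T>C CPM on a log axis in each of the 2 libraries of 0 h (black) and 48 h (red) for the downregulated genes with the highest 0 h level, the steepest falls, the smallest changes and the upregulated genes other than Mgat4c and Cyp1a1, which had none at 0 h. Red points lie under black points for every gene of the first 2 panels, as the rule required for the first, and among or above them in the others.

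A further set of genes with many T>C reads showed T>C levels at 48 h close to those at 0 h. The 10 highest log2 fold changes among genes that averaged 50 or more T>C reads at 0 h, after the upregulated genes, ran from −0.039 to 0.47, and none of them was called. Mt1, a metal-binding metallothionein gene, had 11.2 and 12.2 T>C CPM at 0 h and 18.9 and 15.6 at 48 h (log2 fold change 0.47 with SE 0.221, adjusted p = 0.0498). Rell1, a homologue of the TNF receptor family member RELT, had 26.3 and 23.0 at 0 h and 28.8 and 29.0 at 48 h, and Rlim, an E3 ubiquitin ligase gene on the X chromosome, had 14.0 and 14.5 at 0 h and 15.9 and 16.5 at 48 h. For Rell1 and Rlim both 48 h libraries lay above both 0 h libraries, with differences inside the fold threshold. T>C scaling, which moved the median gene by 1.18, gave them values from 1.15 for Tead1, a DNA-binding partner of YAP, to 1.67 for Mt1, which follows from how they were chosen.

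The other members of this group were S100a6, a calcium-binding protein (0.40), the zinc-finger factor Klf6 (0.22), the ubiquitin ligase subunit Wsb1 (0.15), the sulfate transporter Slc26a2 (0.11), the tubulin gene Tubb2b (0.052) and the actin-depolymerizing factor Dstn (0.0015). In all reads, Klf6 rose by 1.47, Rell1 by 1.25, Slc26a2 by 1.16 and Rlim by 1.01, each with an adjusted p of at most 1.54e-06. Dstn had 0.47 and Tubb2b 0.046 in all reads, and 98.4% and 98.0% of their reads were multimapped.

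The genes of the complexes that write the mark gave a mixed picture. Of the SET1/COMPASS subunits, 8 of 19 tested members were downregulated (median log2 fold change −0.97, or 0.20 with T>C scaling), beside 64.4% and a median of −1.29 over all tested genes. Dpy30 itself had 5.74 and 5.52 T>C CPM at 0 h and 1.22 and 2.08 at 48 h (log2 fold change −1.84 with SE 0.395, adjusted p = 4.43e-05), with an all-read change of −0.077. The other core subunits had values of −1.31 for Ash2l, −1.15 for Rbbp5 and −0.91 for Wdr5, of which Wdr5 was not called. Rbbp5 was not called without replicate 2 of 0 h (−0.97) or replicate 1 of 48 h (−0.77), and Wdr5 was called without replicate 2 of 48 h (−1.33). Less the expected unlabelled reads, the log2 ratio of Rbbp5 was −1.77 instead of −1.06.

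Among the catalytic subunits, Kmt2c fell (7.65 and 9.24 T>C CPM at 0 h, 2.29 and 3.86 at 48 h, log2 fold change −1.54) together with its partner Ncoa6 (−1.60). Setd1b was at −0.67 (−1.20, and called, without replicate 2 of 48 h) and Kmt2a at −0.19 (T>C CPM 2.06 and 2.44 at 0 h and 2.29 and 1.93 at 48 h). Kmt2d was called at −1.05 (adjusted p = 0.0448), and not without replicate 2 of 0 h (−0.67) or of 48 h (−0.52), with DESeq2 (−1.06), with no filter on low counts (−1.05), in a fit of the 4 libraries alone (−1.06) or without TMM (−0.96). The accessory subunit Pagr1a fell (−1.24), a call lost without replicate 2 of 48 h (−1.09). Bod1 (−0.97) and Bod1l (−1.27) were not called, but were without replicate 1 of 0 h (−1.17 and −1.84) or replicate 2 of 48 h (−1.61 and −2.96). The other accessory subunits that were not called were Psip1 (−0.64), Wdr82 (−0.76), Hcfc1 (−0.72), Kdm6a (−0.79), Paxip1 (−0.31) and Hcfc2 (0.10). Of these, Wdr82, Hcfc1 and Kdm6a had adjusted p-values of 0.00457, 0.0150 and 0.0157 in the edgeR test and missed only the fold threshold. Men1, a subunit of the KMT2A and KMT2B complexes, had 1 and 0 T>C reads at 48 h after 5 and 9 at 0 h. It is among the 8 called (adjusted p = 0.00371), but 84.2% of its 48 h reads are expected from unlabelled RNA, and no fold is given from 1 read.

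Among the H3K4 demethylases and their corepressors, 5 of 6 fell (median log2 fold change −1.54, or −0.36 with T>C scaling), and the count was 3 without replicate 1 of 48 h. Rcor1, the main corepressor of LSD1, had −1.47. LSD1 itself (Kdm1a) had −1.63, and −1.02 with the call lost without that library. Kdm5b, one of the deleted genes, is counted among the 5 with −1.61. Unlabelled RNA accounts for 90.4% of its T>C reads at 48 h, and its log2 ratio was −4.37 less that background and −1.53 with it. Kdm5c, which is intact, was called at −1.16 (adjusted p = 0.0195, all reads 59.6 and 64.0 CPM at 0 h and 72.1 and 71.0 at 48 h), and not with DESeq2 (−1.17) or without any 1 of the 4 libraries (−1.24 to −1.08). Kdm5a, with 7 and 11 T>C reads at 0 h, had −0.78 and was not called. Of the proteins that bind H3K4me3, 8 of 11 fell (median log2 fold change −1.41, or −0.22 with T>C scaling), including Ing1, a PHD-finger subunit of a histone deacetylase complex (35.0 and 34.3 T>C CPM at 0 h, 13.9 and 11.4 at 48 h), and the remodeller Chd1 (−1.54). Over all tested genes the share called lower was 64.4% and the median −1.29. Of the Polycomb subunits, 10 of 15 fell (median log2 fold change −1.29, or −0.094 with T>C scaling), which is near these values, with −1.29 for the PRC2 partner Jarid2 and −1.34 for the H2A ubiquitin ligase Rnf2. DNA methylation enzymes fell in 6 of 7 (median log2 fold change −1.62, or −0.43 with T>C scaling), with −2.17 for Tet2 and −1.62 for Tet1, which oxidize methylcytosine.

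The counts for genes of the transcription machinery lay on both sides of the share called lower over all tested genes, 64.4%. RNA polymerase II subunits were downregulated in 8 of 10 (median log2 fold change −1.41, or −0.24 with T>C scaling, 5 without replicate 1 of 48 h). Polr2a, the catalytic subunit, had 15.4 and 18.2 T>C CPM at 0 h and 4.73 and 3.86 at 48 h (log2 fold change −2.06 with SE 0.259, adjusted p = 9.23e-11), and Polr2m had −1.34. General transcription factors fell in 17 of 25 (median log2 fold change −1.42, or −0.23 with T>C scaling), with −1.51 for Gtf2e2, a subunit of TFIIE, and −1.0 for the TFIID subunit Taf7, which lay just inside the fold threshold and was called with DESeq2 (−1.0), in a fit of the 4 libraries alone (−1.01) and without replicate 1 of 0 h or 2 of 48 h (−1.37 and −1.38). Pausing and elongation factors fell in 13 of 24 (median log2 fold change −1.12, or 0.060 with T>C scaling), with −1.28 for Ccnt1, the cyclin of P-TEFb, and −1.34 for Leo1 of the PAF complex. Integrator subunits fell in 7 of 9 (median log2 fold change −1.44, or −0.27 with T>C scaling), with −1.86 for Ints2, and in 4 without replicate 2 of 0 h or replicate 1 of 48 h. Splicing factors of the SR, hnRNP and SF3 groups fell in 35 of 41 (median log2 fold change −1.31, or −0.12 with T>C scaling), with −1.66 for Hnrnpa2b1.

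Of the pluripotency genes, 17 of 21 tested members were downregulated (median log2 fold change −1.38, or −0.18 with T>C scaling), beside 64.4% and a median of −1.29 over all tested genes. Sox2 had 136 and 132 T>C CPM at 0 h and 43.7 and 48.0 at 48 h (log2 fold change −1.63 with SE 0.145, adjusted p = 8.55e-17). Klf4 had 58.8 and 77.0 at 0 h and 17.4 and 24.7 at 48 h (log2 fold change −1.78 with SE 0.169, adjusted p = 1.68e-15). Tdgf1, a Nodal co-receptor, had 67.2 and 64.5 at 0 h and 14.3 and 15.2 at 48 h (log2 fold change −2.25 with SE 0.176, adjusted p = 2.53e-19), and it was called lower on T>C scaling too (−1.06). In each of these genes both 48 h libraries lay far below both 0 h libraries.

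Nanog and Pou5f1 were not called. Nanog had 32.9 and 49.4 T>C CPM at 0 h and 30.0 and 28.2 at 48 h (log2 fold change −0.59 with SE 0.169, adjusted p = 0.00162), so its log2 fold change lay above the median gene's. Pou5f1 had 30.2 and 29.5 at 0 h and 16.9 and 16.2 at 48 h (log2 fold change −0.94 with SE 0.185, adjusted p = 1.09e-05), with 99.7% of its reads multimapped. Nr5a2 (−0.70) and Klf2 (−0.60) were also not called, and Esrrb (−2.02), Tfcp2l1 (−1.47), Sall4 (−1.35), Zfp42 (−1.46) and Dppa5a (−1.63) fell. Less the expected unlabelled reads, the log2 ratio was −3.18 for Tfcp2l1, −2.28 for Dppa5a and −2.50 for Tdgf1, against −1.38, −1.54 and −2.16 with them. In all reads the log2 fold change was −0.039 for Sox2, 0.0025 for Zfp42, −0.063 for Pou5f1, −0.20 for Esrrb, −0.67 for Dppa5a and −0.47 for Tdgf1, all inside the fold threshold. Summed over the 8 ES markers, T>C CPM were 543 and 599 at 0 h and 198 and 227 at 48 h. Fewer cells of this type and less RNA per cell cannot be told apart in bulk samples.

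Formative and early differentiation genes fell in 4 of 9 (median log2 fold change −0.98, or 0.21 with T>C scaling), or 7 without replicate 1 of 0 h, beside 64.4% of all tested genes. The ERK phosphatase Dusp6 had 155 and 198 T>C CPM at 0 h and 77.6 and 135 at 48 h (log2 fold change −0.82 with SE 0.148, adjusted p = 1.80e-06), and Spry4, another ERK feedback inhibitor, had 22.2 and 42.6 at 0 h and 12.7 and 26.1 at 48 h. For both genes, replicate 2 lay well above replicate 1 at 48 h. Without replicate 2 of 48 h, Dusp6 was at −1.29 and Spry4 at −1.47 and both were called, as they were without replicate 1 of 0 h (−1.0 and −1.24).

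The summed all-read level of each set of markers of other cell types was below that of the ES markers. The counts below stand beside 64.4% called lower over all tested genes. Of the 12 trophectoderm markers 3 were tested and none was called. Gata3 had 1.47 and 1.15 T>C CPM at 0 h and 1.37 and 2.82 at 48 h, and Tfap2c had 3.38 and 1.80 at 0 h and 3.35 and 4.75 at 48 h, values of 0.60 and 0.58 that were called higher with T>C scaling (1.76 and 1.75). The third, Cdx2, named after its value was seen, had −1.42, or −0.31 with T>C scaling, and was called in neither. In all reads, the 12 trophectoderm markers summed to 74.4 and 82.0 at 0 h and 116 and 126 at 48 h (CPM), and the primitive endoderm markers to 611 and 646 at 0 h and 766 and 809 at 48 h. Fibroblast markers summed to 836 and 851 at 0 h and 1005 and 1085 at 48 h, germline markers to 511 and 459 at 0 h and 546 and 536 at 48 h and neural markers to 129 and 118 at 0 h and 119 and 103 at 48 h. Of these 5 sets, all but the neural were higher in both 48 h libraries than in both 0 h libraries. The share of all genes with that order in all reads was not computed, so no reading is given to these sums. In T>C CPM the sums were 8.09 and 6.54 at 0 h and 6.86 and 8.91 at 48 h for trophectoderm, 28.7 and 33.0 at 0 h and 23.2 and 20.6 at 48 h for primitive endoderm and 28.1 and 37.1 at 0 h and 19.8 and 20.9 at 48 h for fibroblast markers. They were 25.3 and 25.3 at 0 h and 8.23 and 13.4 at 48 h for germline markers. For neural markers they were 4.85 and 7.96 at 0 h and 2.29 and 3.42 at 48 h. Of the 5 sets only the trophectoderm set overlapped between the groups in T>C CPM. Both 48 h libraries lay below both 0 h libraries for 84.2% of all tested genes as well. Of 5 primitive endoderm markers tested, 2 fell (1 with DESeq2 or without replicate 2 of 0 h), with a median log2 fold change of −1.45, and values from −2.28 to the −0.37 of Sparc, a basement membrane protein. Fibroblast markers had −0.40 for fibronectin (Fn1) and −0.93 for vimentin (Vim), with 0 of 2 called lower (Vim, at −1.15, without replicate 1 of 0 h). Of the other markers, 1 of 11 fibroblast and 1 of 12 neural genes had no read in any dKO library. Germline and neural markers fell in 2 of 3 and 2 of 3 tested, including the germline genes Tex19.1 (−1.28) and Mael (−1.83), and the neural count was 1 with DESeq2, in a fit of the 4 libraries alone, and without replicate 2 of 0 h or either 48 h library. The neural gene Sox11 was not called at −1.02, but was with a replicate block (−1.02). Its log2 fold change was −1.29 without replicate 1 of 0 h and −2.16 without replicate 2 of 48 h. No 2-cell-like marker had enough T>C reads to be tested, and 4 of 11 were at 0 throughout. The part of these cells in the results was not tested.

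Of the lists with at least 5 tested genes, the medians nearest to 0 were those of immediate early genes, actin, SRF and YAP targets, and p53 and its targets. Of the immediate early genes, 13 were tested, 2 fell (1 without TMM, replicate 2 of 0 h or replicate 1 of 48 h) and 1 rose (median log2 fold change −0.29, or 0.88 with T>C scaling). Beside Egr1, Maff had 1.18 and 1.80 T>C CPM at 0 h and 2.74 and 3.27 at 48 h (log2 fold change 0.90, not called) and Klf6 had 13.4 and 20.1 at 0 h and 18.4 and 23.3 at 48 h. Nr4a1 had 23.8 and 40.7 at 0 h and 11 and 33.1 at 48 h, and was called at −1.67 without replicate 2 of 48 h. Over all tested genes 64.4% fell and 0.117% rose. On T>C scaling, Egr1, Klf6 and Maff were called higher. Genes of this class are induced within minutes by growth factors and stress, and their mRNAs are short-lived.

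Of p53 and its targets, 6 of 19 fell (median log2 fold change −0.78, or 0.41 with T>C scaling), beside 64.4% of all tested genes. Mdm2, the ubiquitin ligase that opposes p53, had 59.0 and 67.5 T>C CPM at 0 h and 36.7 and 43.4 at 48 h (log2 fold change −0.75, not called), and Ccng1 had −0.70. Plk2 (−0.031) and Trp53inp1 (−0.10) did not pass the test and were called higher on T>C scaling (1.15 and 1.08). Genes of the integrated stress response fell in 7 of 20 (median log2 fold change −0.88, or 0.30 with T>C scaling, 4 without TMM), with −0.79 for Sesn2, −0.12 for Chac1 and −0.16 for Atf5, none of them called. On T>C scaling Chac1 and Atf5 were called higher (1.07 and 1.03). Targets of SRF and YAP and actin genes fell in 4 of 14 (median log2 fold change −0.75, or 0.44 with T>C scaling, 2 without replicate 2 of 0 h). Actb had 89.7 and 103 T>C CPM at 0 h and 88.0 and 83.3 at 48 h (log2 fold change −0.26 with SE 0.145, adjusted p = 0.100), Actg1 had −0.53, and the transcription factor Srf had 0.27. With T>C scaling Srf was called higher (1.46).

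Heat shock proteins and chaperones fell in 21 of 28 (median log2 fold change −1.32, or −0.13 with T>C scaling), beside 64.4% of all tested genes. Hsp90aa1 (−0.78) and Hspb1 (−0.14) were not called, and 40.6% of the Hsp90aa1 T>C reads at 48 h are expected from unlabelled RNA. With T>C scaling Hspb1 was called higher (1.05). Of the 8 aryl hydrocarbon receptor targets, 2 were tested, Cyp1a1 and Tiparp. Tiparp had −0.85, or −1.0 and called without replicate 1 of 0 h.

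Among the genes of protein synthesis, the counts stand beside 64.4% and a median of −1.29 over all tested genes. Cytosolic ribosomal protein genes fell in 59 of 70 (median log2 fold change −1.32, or −0.13 with T>C scaling), between −1.87 and −0.54. Most have near-identical processed copies, and among genes with at most 20% multimapped reads 4 were called lower, beside 3088 of all genes under that filter. How many ribosomal protein genes were tested under it is not given here, so the 4 give no share. Rpl17 had 102 and 143 T>C CPM at 0 h and 82.0 and 79.8 at 48 h, a change of −0.69 that was not called. Ribosome biogenesis genes fell in 50 of 70 (median log2 fold change −1.27, or −0.092 with T>C scaling), with −1.60 for Npm1 and −1.34 for Brix1, while the kinase gene Riok1 had 0.030 and was called higher on T>C scaling (1.22), and mitochondrial ribosomal protein genes fell in 38 of 60 (median log2 fold change −1.30, or −0.12 with T>C scaling), with −1.47 for Mrpl18 and −1.29 for Mrps2. Translation initiation factors fell in 21 of 35 (median log2 fold change −1.18, or 0.0044 with T>C scaling), and the RNA helicase Eif4a1 had −1.12, or −0.96 and not called without replicate 1 of 48 h. Aminoacyl-tRNA synthetases fell in 7 of 17 (median log2 fold change −0.81, or 0.38 with T>C scaling). Aars, the alanyl-tRNA synthetase, had 23.5 and 24.1 at 0 h and 7.47 and 7.28 at 48 h (log2 fold change −1.78 with SE 0.217, adjusted p = 3.09e-11). Tars, the threonyl-tRNA synthetase, had −0.81, and −1.10 with a call without replicate 2 of 48 h. Lars, the leucyl-tRNA synthetase, had 2.94 and 3.59 at 0 h and 4.42 and 3.86 at 48 h, and it was called higher on T>C scaling (1.44).

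Of the genes of DNA replication and the G1/S transition, 34 of 40 fell (median log2 fold change −1.52, or −0.33 with T>C scaling), beside 64.4% of all tested genes. Pcna, the sliding clamp of DNA polymerase, had 71.0 and 80.8 T>C CPM at 0 h and 16.3 and 20.2 at 48 h (log2 fold change −2.14 with SE 0.168, adjusted p = 2.53e-19), and its all-read level changed by −0.65 (adjusted p = 4.35e-06). The replication licensing factor Cdt1 had −1.58. Genes of mitosis and G2/M fell in 28 of 43 (median log2 fold change −1.15, or 0.034 with T>C scaling), near that share, with −1.18 for the condensin subunit Smc4 and −0.88 for cyclin B1 (Ccnb1), which was called only without replicate 1 of 0 h (−1.01) or replicate 2 of 48 h (−1.04). The Myc and Max network fell in 5 of 7 (median log2 fold change −1.39, or −0.20 with T>C scaling), with −1.39 for Mycn, a Myc family gene of mES cells, and −1.60 for its partner Max.

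Cholesterol synthesis and uptake had the lowest median of the lists with at least 5 tested genes, with 11 of 14 downregulated (median log2 fold change −1.75, or −0.57 with T>C scaling), beside 64.4% of all tested genes. Hmgcs1, which makes HMG-CoA, had 7.65 and 9.88 T>C CPM at 0 h and 1.37 and 3.86 at 48 h (log2 fold change −1.82 with SE 0.337, adjusted p = 2.96e-06). The methionine cycle, which supplies the methyl donor of histone methylation, fell in 9 of 11 (median log2 fold change −1.56, or −0.38 with T>C scaling). Mat2a, which makes S-adenosylmethionine, had 63.5 and 72.0 at 0 h and 20.3 and 20.6 at 48 h (log2 fold change −1.82 with SE 0.167, adjusted p = 3.76e-16), and Mthfd1 had −1.52.

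Genes of hypoxia and glycolysis fell in 13 of 18 (median log2 fold change −1.42, or −0.25 with T>C scaling), or 8 without replicate 1 of 48 h, beside 64.4% of all tested genes. The glucose transporter Slc2a1 had 70.6 and 97.8 T>C CPM at 0 h and 23.6 and 30.3 at 48 h, and the related Slc2a3 had 31.9 and 31.7 at 0 h and 31.9 and 28.2 at 48 h. The first fell (log2 fold change −1.73 with SE 0.166, adjusted p = 2.65e-15) and the second was not called (log2 fold change −0.17 with SE 0.171, adjusted p = 0.349). With T>C scaling Slc2a3 was called higher (1.02). Nuclear genes of the respiratory chain fell in 42 of 66 (median log2 fold change −1.20, or −0.011 with T>C scaling), near that share, with −1.91 for Cox7c, a subunit of complex IV. Proteasome subunits fell in 21 of 29 (median log2 fold change −1.30, or −0.12 with T>C scaling), with −2.14 for the deubiquitinase Psmd14 and −1.62 for Psmd3.

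**Figure D4:**
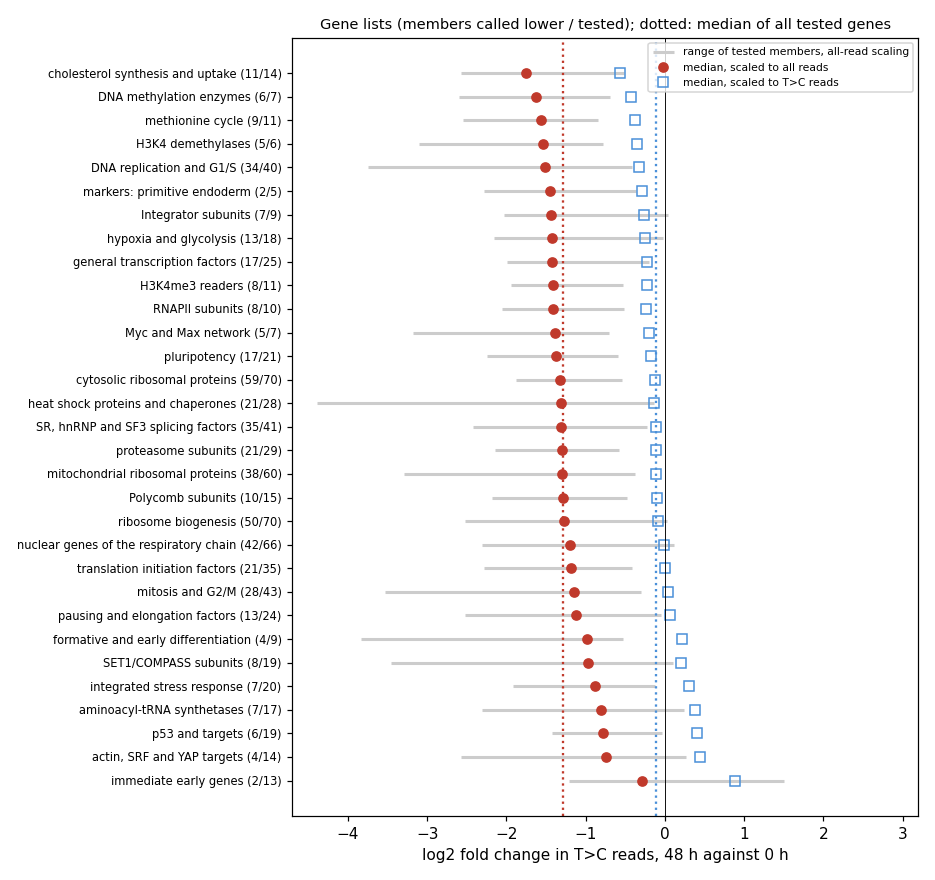
Median log2 fold change in T>C reads, 48 h against 0 h, of the lists with at least 5 tested genes, scaled to all reads (red circles, with the range of the members in grey) or to T>C reads (blue squares). Labels give members called lower and tested, and dotted lines mark the medians of all tested genes, −1.29 and −0.11. Every red median is below 0, from −1.75 for cholesterol synthesis to −0.29 for immediate early genes, and the blue medians of the lists at the bottom are above 0.

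Between 24 h and 48 h the T>C level went further down. The median log2 fold change of 48 h against 24 h was −0.51, and 278 genes (4.66%) were lower and 1 (0.0168%) was higher. With T>C scaling the counts were 1 lower and 7 higher, and with DESeq2 140 and 0 (8 higher at an unadjusted p below 0.05). The count of lower genes rested on single libraries and was 7 without replicate 1 of 48 h, 538 without replicate 2 of 48 h, 94 without replicate 1 of 24 h and 147 without replicate 2 of 24 h. Of the named genes, 3 were among those lower. Lgr4 had 1.44 and 3.33 T>C CPM at 24 h and 0.152 and 0.891 at 48 h (log2 fold change −2.15, adjusted p = 0.0130). Tet2 changed by −1.09 (adjusted p = 0.00923) and Kmt2c by −1.06 (adjusted p = 0.0270). Klf4 had 38.7 and 39.4 at 24 h and 17.4 and 24.7 at 48 h, a value of −0.91 inside the fold threshold (adjusted p = 2.77e-04). Jade1 had 55.9 and 46.9 at 24 h and Dppa5a had 24.3 and 18.8, with changes of −0.38 (adjusted p = 0.104) and −0.11 (adjusted p = 0.746) between the time points. The gene called higher was Tfap2c, with 1.44 and 0.908 T>C CPM at 24 h and 3.35 and 4.75 at 48 h (log2 fold change 1.74, adjusted p = 0.0113). Without replicate 1 of 48 h no gene was called higher, and 41 were at an unadjusted p below 0.05.

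Against the shared 0 h libraries, 1643 genes (27.5%) were downregulated and 7 (0.117%) upregulated at 24 h, with a median of −0.80. Earlier medians were −0.12 (2 h), −0.26 (4 h) and −0.19 (8 h). The genes called lower at both 24 h and 48 h were 90.4% of those called at 24 h and 38.7% of those called at 48 h, in comparisons that share their controls.

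The standing mRNA pool gave far fewer calls over the same 48 h. In all reads, 89 of 11394 genes (0.781%) were lower and 189 (1.66%) higher. Without replicate 2 of 48 h these counts were 152 and 125, and without replicate 2 of 0 h the lower count was 50. Of the 3840 genes downregulated in T>C reads, 35 were lower and 2 higher in all reads, and their median all-read change was −0.10. T>C reads are part of all reads, and the latter are scaled to their own total, so a loss shared by all mRNA would not appear in them. Jade1 had 819 and 834 CPM of all reads at 0 h and 659.7 and 666 at 48 h (−0.41, adjusted p = 6.38e-04), and Polr2a changed by −0.15 (adjusted p = 0.142).

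The same genes can be read in 2 other lines with their own 0 h libraries, 3 at each time point, at 24 h of loss: DPY30–mAID cells with intact Kdm5 genes and cells in which dTAG-13 removes RBBP5–FKBP. Time and T positions per read differ, and so do the conversions read per 100 T positions, which were 0.473 to 0.533 at 0 h in the dKO, 0.998 to 1.08 in DPY30–mAID and 0.554 to 0.642 in RBBP5–FKBP cells. Reads covered 11.2 to 11.3 T positions in the 4 dKO libraries and 18.4 to 19.0 in these, so the values are set side by side with no comparison. The median was −0.14 after DPY30 loss and −0.91 after RBBP5 loss. Genes called lower were 2.75% and 22.9% of those tested, and genes called higher 0.807% and 0.189%. The order of these shares depends on the scaling. With T>C scaling, 314 genes were lower and 256 higher after DPY30 loss, and 96 lower and 16 higher after RBBP5 loss. Each fit of 12 libraries also drew its spread from 8 h libraries, which were unevenly labelled in DPY30–mAID cells. Replicates 1 to 3 at 8 h had 0.855, 0.609 and 0.317 conversions per 100 T positions there. In RBBP5–FKBP cells they had 0.426, 0.388 and 0.413. The part of this spread in the counts was not tested, so 2.75% is not read as a weak response. The 174 lower calls in DPY30–mAID cells were 26 to 85 and the 51 higher calls 9 to 14 when any 1 of the 6 libraries was left out, and the 9 higher calls in RBBP5–FKBP cells were 5 without replicate 3 of 0 h or replicate 2 of 24 h.

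In that order, the log2 fold changes at 24 h were 3.01 and −1.76 for Egr1, −0.67 and −1.84 for Jade1, −2.01 and −0.75 for Gbx2 and −2.16 and −0.85 for Polr2a. Beside them stand the dKO values at 48 h of 1.51, −2.15, −3.31 and −2.06. Sox2 had 0.46 and −1.33, Pcna 0.63 and −1.47 and Rpl4 0.068 and −0.78, beside −1.63, −2.14 and −1.27 in the dKO. Fgfbp1 had −0.084 and −5.06 (the latter with an adjusted p of 4.97e-05 in the edgeR test), beside 1.18 in the dKO. Ccn2 had 1.34 and 0.29, neither of them called, beside 1.30 in the dKO. Mgat4c was tested in DPY30–mAID cells only, with 2.68, and Cyp1a1, Ptgs2 and Csrp1 were tested in neither.

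Tested genes were split into 4 equal groups by each of 4 properties taken from the annotation or from DPY30–mAID libraries. By gene span, the median log2 fold change was −1.38 in the shortest group (up to 11.9 kb), −1.34 and −1.21 in the middle groups and −1.25 in the longest (over 55.2 kb), and the share called lower went from 70.8% to 59.3% beside median 0 h T>C read numbers of 33.0 and 22.5. By the CpG observed/expected ratio of the promoter (RefSeq sequences of GRCm38.p6, 250 bases before to 50 after the start, highest ratio among a gene's starts), which 4805 genes had (80.6%), it was −1.33, −1.28, −1.30 and −1.31 from the lowest to the highest group, with 63.8% and 67.6% called lower at the ends. By the 0 h share of T>C reads, a measure of turnover, it was −1.23, −1.29, −1.34 and −1.33, with 59.4% and 66.6% called lower at the ends. By the 0 h T>C CPM it was −1.32, −1.27, −1.26 and −1.31, while the share of genes called lower went from 52.9% to 76.8% and the median number of 0 h T>C reads from 13 to 93.0.

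**Figure D5:**
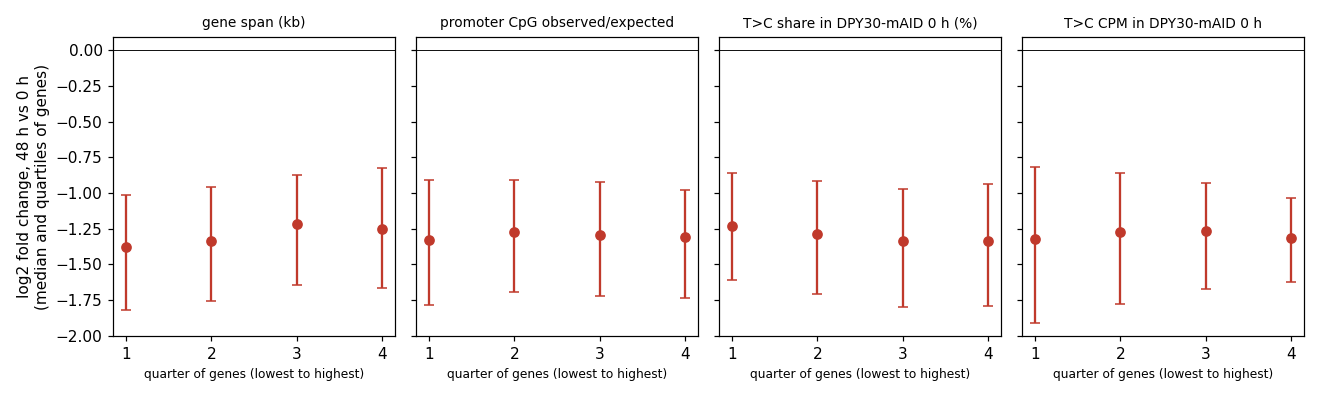
Log2 fold change in T>C reads, 48 h against 0 h, scaled to all reads, in 4 equal groups of the tested genes ordered by gene span, promoter CpG ratio, and the 0 h T>C share and T>C CPM of DPY30–mAID cells. Points are medians over genes and bars run from the lower to the upper quartile. Medians stay between −1.38 and −1.21.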

How the data were processed

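SLAM-seq libraries of 3′-end reads from 4SU-labelled cells were counted by the authors with SlamDunk 0.3.4 on GRCm38 (mm10), per the file headers and the study's methods, and the deposited values are counts per 3′ UTR interval: all reads, T>C reads, T positions covered, conversions and multimapped reads, without molecular identifiers. T>C reads averaged between 1 and 2 conversions in these libraries, so reads with a single conversion are included. The study's methods call genes on reads with 2 or more conversions, a filter that these counts do not allow, so the T>C values here are of another definition. The 46420 intervals were summed to 20177 genes, named from GENCODE vM21 of the same build. Groups and replicate numbers came from the labels. Adapters had been removed with cutadapt through Trim Galore before SlamDunk, per the study's methods. These give HISAT 2.2.1 and featureCounts for Quant-seq, whereas the headers of the deposited Quant-seq tables used here name SlamDunk.

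T>C reads were tested with edgeR 4.0.16 (R 4.3.3), quasi-likelihood test, Benjamini-Hochberg adjustment, library size = all reads with TMM factors from all reads (0.967 to 1.05), in 1 fit of the 12 dKO libraries, on genes averaging 10 or more T>C reads at any time point. A call needed a log2 fold change beyond 1 in size with adjusted p below 0.05. The SE is the size of the log2 fold change over the square root of F. All reads were tested likewise, and the 2 other lines in fits of 12 libraries each. Library medians used a prior count of 0.5. Each fit was first tested on simulated data. DESeq2 1.42.0, T>C scaling, other filters, a replicate block and single libraries left out were alternatives. Background T>C reads were taken per gene from the 21 distinct unlabelled Quant-seq libraries (DPY30–mAID cells, RA time course) where it had at least 1000 reads there, and otherwise over all genes. Depth was the sum of counts, at which 3 T>C reads over both 0 h libraries equal 0.206 T>C CPM.

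Members, the 37 gene lists and the rule for the genes named here were chosen with earlier results of these data known. The rule named genes called higher, the 10 called lower with the highest 0 h level, the 10 steepest falls and the 10 highest changes among genes with at least 50 T>C reads at 0 h, the 2 tested members of each list with the most T>C reads at 0 h, list members called higher in either scaling, the pluripotency, SET1/COMPASS and H3K4 demethylase genes, and the 10 highest T>C-scaled calls with at least 50 T>C reads at 0 h, and 152 genes met it, some of which are not reported here. Other time points and lines were used only as stated, and other assays were not analysed here.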

Additional observations from a re-analysis of the deposited data

How the results depend on the processing

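The share of T>C reads was lower at 48 h under each alternative run, whereas the size of the median change is set by the scaling, which centres it near 0 when T>C reads are the reference. The log2 ratio of the T>C share was −1.18 (−1.29 to −1.07 with 1 library left out), −1.31 for conversions per T position and −1.31 less the unlabelled share. The median log2 fold change from library medians was −1.21, −0.032 scaled to T>C reads, and −1.36 less the unlabelled background of each gene, an alternative chosen after seeing the data.

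For 48 h against 0 h, 3840 genes were called lower and 7 higher. The counts were 170 and 79 scaled to T>C reads with TMM, 120 and 101 without TMM, and 1479 and 1 with a filter of 50 T>C reads on average. Genes called higher numbered 4 with DESeq2, 13 with no filter and 3 to 12 with 1 library left out, and genes called lower 2861 to 3858. For 48 h against 24 h, 278 lower and 1 higher became 140 and 0 with DESeq2 (8 higher at an unadjusted p under 0.05), 167 and 0 with the filter of 50 (0 at an unadjusted p), 1 and 7 scaled to T>C reads with TMM, and 0 and 7 without TMM (140 lower at an unadjusted p with edgeR). They were 689 and 21 at an unadjusted p and 179 lower without genes of over 20% multimapped reads, 3 higher with no filter, and 7 to 538 lower and 0 to 2 higher with 1 library left out. In all reads, 89 lower and 189 higher became 57 and 101 with DESeq2, and 50 to 152 and 125 to 200 with 1 library left out. In DPY30–mAID cells, 174 and 51 became 314 and 256 scaled to T>C reads, and 26 to 85 and 9 to 14 with 1 library left out. In RBBP5–FKBP cells, 1088 and 9 became 96 and 16 scaled to T>C reads, and higher calls 5 to 8 with 1 library left out. The cause of these moves was not tested beyond the smaller number of genes or libraries.

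T>C scaling raised the median gene by 1.18, so many small negative values turned positive. Among the genes named here that were called with either scaling these were, with and without TMM, Eef1a1 0.0040 and 0.077, Atf4 0.15 and 0.23, Rbbp5 0.034 and 0.11, Kmt2d 0.14 and 0.22, Kdm5c 0.027 and 0.10, Smc4 0.0083 and 0.083, Eif4a1 0.064 and 0.14, Tead1 1.15 and 1.23, Hspb1 1.05 and 1.13, Slc2a3 1.02 and 1.10, Chac1 1.07 and 1.15, Atf5 1.03 and 1.10, Plk2 1.15 and 1.22, Trp53inp1 1.08 and 1.16, Actb 0.94 and 1.02 (called without TMM only) and, without TMM, Pagr1a 0.022. Ccn2 turned to −0.18 without replicate 2 of 48 h, and ranged to 2.44 with other libraries left out.

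Same-numbered libraries did not deviate together (correlations of −0.016 to 0.051 over 15 pairs of time points), so numbers were not treated as pairs. With a replicate block, 3844 and 7 genes were called for 48 h against 0 h, 318 and 2 against 24 h, and 94 and 201 in all reads. With 2 libraries a group, single genes under about 10 T>C reads at 48 h are loosely measured.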
